A study of Mus musculus with 6 samples.

Results

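The regions described here are the stretches of the mouse autosomes with the densest reads from a 5-hydroxymethylcytosine (5hmC) pull-down in wild-type (WT) material. Levels were not set against input libraries, so how much of a level reflects 5hmC was not tested. Of 189470 listed regions on chromosomes 1 to 19, outside the 25 regions of highest mean count, 2925 (1.54%) met the rule. Their level was at least 20 CPM per kb in both WT libraries, and their mean raw count was below 5000. CPM per kb is the read count scaled to a total of 1000000 on chromosomes 1 to 19 outside those 25 regions and divided by the width of the region in kb. The limit on the mean count removed 0 regions, since the largest mean count among the chosen regions was 1848. The WT values chose these regions, so their high level in WT is the rule itself and not a finding.

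5hmC is made from methylated cytosine by the Tet enzymes, and Tet1 is a member of that family. The mark is abundant in brain. It can be an intermediate on the way to unmethylated cytosine or can persist, and it is known for lying in the bodies and enhancers of active genes. In the assay used here a modified glucose was attached to 5hmC and linked to biotin, the DNA so marked was pulled down, and a region with more tagged DNA gathers more reads.

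The 4 libraries compared were 2 from Tet1 knockout (KO) mice and 2 from WT mice, numbered sample 1 and sample 2 within each genotype in the labels and called KO1, KO2, WT1 and WT2 here. The labels call the material brain, whereas the study describes astrocytes, the star-shaped glia of the brain, cultured from newborn pups of WT and constitutive Tet1 KO mice. The KO is a germline one, so by design Tet1 is missing in every cell type and throughout development. Sex, and whether the samples of a genotype came from separate animals, were not given in the sources used here, so the spread between libraries may be partly technical.

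The total count ranged from 16819455 to 19288900 per library, and from 11921429 to 15284169 on chromosomes 1 to 19 outside the 25 regions. Those 25 took 11.6% and 17.9% of the autosomal counts in the sample 1 libraries of KO and WT, against 36.7% and 34.3% in the sample 2 libraries. On chromosome Y, 19 of 56 regions were at 20 CPM per kb or more in both WT libraries, and these had a median of 12.7 in KO1 and 0 in KO2. The results below are given for each library. Genes, exons and promoters are not given for any region, because no annotation of mm9, the build named in the submitters' processing notes, was used here. For the same reason neither the loss of Tet1 nor the cell type was checked in these counts.

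To see how the strongest WT regions stood in KO, their level was first read in each library. The median was 19.96 CPM per kb in KO1, 23.7 in KO2, 24.6 in WT1 and 25.2 in WT2. The middle 80% of the regions spanned 13.0 to 28.9 in KO1, 14.7 to 33.9 in KO2, 20.9 to 32.9 in WT1 and 20.98 to 35.4 in WT2. Over all autosomal regions the medians were 8.25, 7.46, 7.93 and 7.85 in the same order, so the strongest WT regions remained well above the typical region in both KO libraries. KO1 had the lowest level of the 4 libraries at 1771 of the 2925 regions (60.5%), and KO2 at 852 (29.1%). The rule holds both WT libraries at 20 or above, which favours a KO library as the lowest. These shares were not set beside those over all autosomal regions, so no loss in KO is read from them. KO2 had the highest level at 824 regions (28.2%), more often than WT1 (747 regions).

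**Figure D1:**
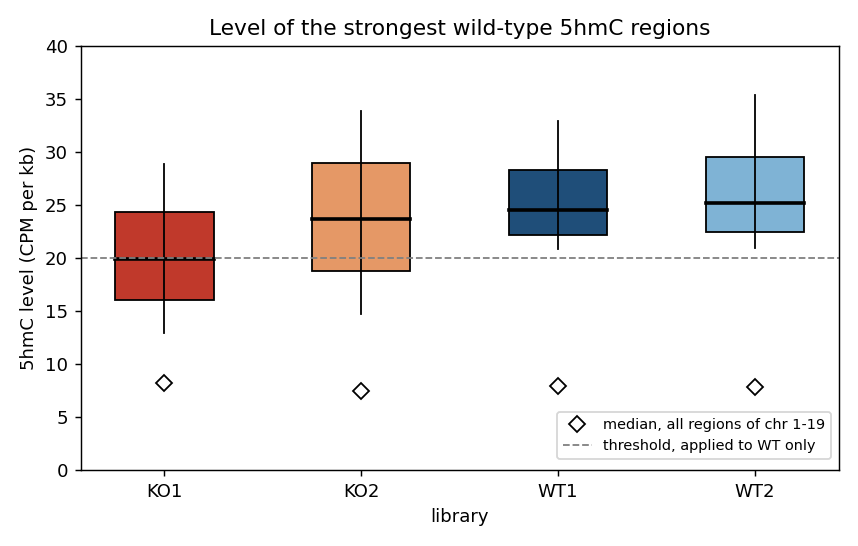
The 5hmC level in CPM per kb of the 2925 strongest WT regions in each library, with boxes for the middle 50%, lines for the middle 80%, a bar at the median and a diamond at the median of all autosomal regions. The KO1 median (19.96) lies at the threshold, and KO2 (23.7) lies near the WT libraries (24.6 and 25.2), whose values the rule itself holds at 20 or above.

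The raw counts behind these levels were not small. Per region they ran from 25 to 1423 in KO1 (median 249), from 3 to 2202 in KO2 (median 230), from 63 to 1629 in WT1 (median 283) and from 62 to 3180 in WT2 (median 265). Together the regions took 5.43% of the autosomal counts outside the 25 in KO1, 6.41% in KO2, 6.73% in WT1 and 7.03% in WT2.

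Many of the strongest WT regions also reached the threshold in KO. In KO1, 1455 of them (49.7%) were at 20 CPM per kb or more, and in KO2, 2045 (69.9%). Both KO libraries reached 20 at 1075 regions (36.8%), and neither did at 500 (17.1%). KO2 alone reached it at 970 regions and KO1 alone at 380. Ranked within each library, the regions had a median percentile of 98.4 in KO1 and 98.5 in KO2, and 76.4% and 78.8% of them lay in the top 5% of autosomal regions. Few dropped to an ordinary level, with 28 regions in KO1 and 16 in KO2 below the library's own median.

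Applied to single libraries, the same threshold was passed by 2912 autosomal regions in KO1, 6223 in KO2, 4242 in WT1 and 4512 in WT2. The KO libraries were thus the extremes in both directions, with the WT libraries between them. The 2925 shared WT regions made up 69.0% of those past 20 in WT1 and 64.8% of those in WT2. In the KO pair, 1448 regions passed in both libraries, which is 49.7% of the KO1 list and 23.3% of the KO2 list. Of these 1448 regions, 1075 (74.2%) were also among the strongest WT regions. Across the 2925 regions WT1 and WT2 levels had a rank correlation of 0.639, and KO1 and KO2 levels one of 0.215, and over all 189470 autosomal regions it was 0.690 and 0.397. These are descriptions across regions of the same libraries, and the choice on WT narrows the range of the first.

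A region chosen for a high WT value tends to be lower when measured again, in any library. To read KO against WT values that the choice did not use, regions were therefore chosen on 1 WT library alone and read in the other. The 4242 regions at 20 or more in WT1 had a median of 22.7 CPM per kb in WT2, 18.9 in KO1 and 21.2 in KO2. The 4512 regions at 20 or more in WT2 had a median of 22.0 in WT1, 17.9 in KO1 and 21.8 in KO2. KO1 was thus below the unused WT library in both choices, with a median log2 ratio of -0.29 each time. KO2 was lower by a median log2 ratio of -0.13 against WT2 and of -0.01 against WT1. The share of regions at which KO2 lay below the unused WT library was 63.0% in the first choice and 50.8% in the second. For KO1 it was 73.1% and 77.3%. Over all autosomal regions the median levels were 8.25 in KO1, 7.46 in KO2, 7.93 in WT1 and 7.85 in WT2. The ratios and shares were not set beside the same pairs over all regions, so an offset between libraries may be part of them.

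Chosen in the other direction, the 2912 regions at 20 or more in KO1 had a median of 19.9 CPM per kb in KO2, 22.1 in WT1 and 21.3 in WT2. The 6223 regions at 20 or more in KO2 had a median of 15.4 in KO1, 18.0 in WT1 and 18.9 in WT2. In both of these choices, the library furthest below the chosen one was the other KO library and not a WT library.

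The log2 ratio of KO to WT was next taken within each sample number, with a pseudocount of 0.5 counts. Its median over the strongest WT regions was -0.35 in sample number 1 (middle 50% from -0.62 to -0.09) and -0.14 in sample number 2 (-0.44 to 0.10). Over all autosomal regions the medians were 0.02 and -0.10, so the difference from the typical region was -0.37 in sample number 1 and -0.04 in sample number 2. Over the 37695 autosomal regions with a mean count of 100 or more, the medians were instead -0.02 and 0.05. The small difference in sample number 2 thus depended on the regions used for comparison. KO was below WT at 82.9% of the strongest regions in sample number 1 and at 65.4% in sample number 2. It was below in both at 1590 regions (54.4%, against 26.6% of all autosomal regions) and above in both at 177 (6.05%, against 22.7%). The choice on WT values favours negative ratios, so nothing is read from these shares. With 2 libraries a genotype, no exact test of a median can give a two-sided p below 0.333, and none was made.

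The size of the ratio varied with the scaling. With libraries matched in their whole distribution by quantile normalisation, the medians became -0.32 in sample number 1 and -0.24 in sample number 2. In that scaling, regions chosen on WT1 alone had median log2 ratios to WT2 of -0.23 for KO1 and -0.21 for KO2. Those chosen on WT2 alone had ratios to WT1 of -0.27 and -0.11. With TMM-adjusted library sizes the medians of the 2925 regions were -0.38 and -0.06, and with totals over all regions they were -0.24 and -0.19. Both medians thus moved with the scaling and stayed negative in each of these 3. The medians over all autosomal regions moved too, to -0.02 and -0.02 with TMM and to 0.12 and -0.16 with totals over all regions. In both of these scalings the difference from the typical region stayed at -0.37 in sample number 1 and -0.04 in sample number 2. With quantile normalisation it was -0.33 and -0.24.

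**Figure D2:**
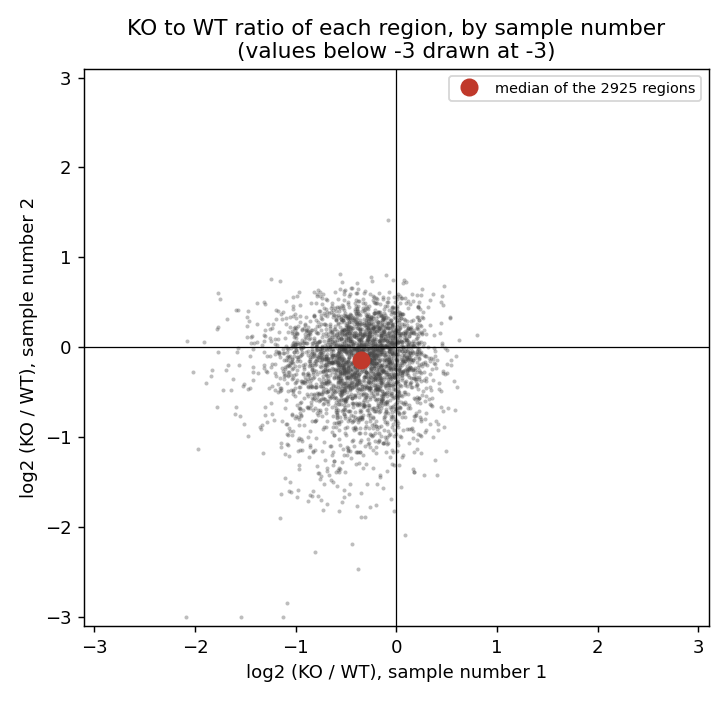
Each point is 1 of the 2925 strongest WT regions, placed by its log2 ratio of KO to WT in sample number 1 (horizontal) and sample number 2 (vertical), and the large point is their median at -0.35 and -0.14. Regions below WT in both sample numbers fill the lower left part (1590 regions), while only 177 lie in the upper right, and the choice on WT values favours negative ratios.

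Both KO libraries lay below both WT libraries at 1231 of the 2925 regions (42.1%), against 17.0% of all autosomal regions. Both lay above at 118 regions (4.03%), against 14.2%. By the quasi-likelihood test of edgeR with Benjamini-Hochberg adjustment over 176957 regions, 0 of the 2925 passed at adjusted p under 0.05, against 0% of all regions tested. All 2925 passed the filter on low counts, which their WT counts alone ensured. At an unadjusted p under 0.05 there were 230 lower in KO (7.86%, against 1.27% of all regions tested) and 2 higher (0.0684%, against 1.54%), and DESeq2 gave 0 at adjusted p (6 of the 191920 regions it tested) and 172 at unadjusted p under 0.05 (3635 of all it tested). Since the WT libraries of this comparison chose the regions, nothing is read from these shares.

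The count of 0 changed when a KO library was left out. Without KO1, where the lone KO library is assumed to vary like the WT pair, edgeR gave 248 of the strongest regions lower and 66 higher in KO at adjusted p under 0.05, against 3.47% and 4.04% of all regions tested. Without KO2 it gave 418 lower and 0 higher, against 0.837% and 0.249%. Leaving out either WT library left the count at 0. With the sample number as a block in the model, 6 strongest regions (0.205%) were lower and 0 higher, against 0.0300% and 0.0147% of all regions tested. The WT libraries in all these fits also chose the regions, which favours calls lower in KO. Nothing is therefore read from these counts.

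The ratio differed with the width of the region. Among the 207 strongest regions narrower than 500 bp, the median level was 16.5 CPM per kb in KO1 and 17.4 in KO2, against 23.8 and 24.3 in WT, with median log2 ratios of -0.57 and -0.54. The 1903 regions of 500 to 1000 bp had ratios of -0.38 and -0.16, and the 815 regions of 1000 bp or more had -0.24 and -0.05. Narrow regions hold fewer reads, and the part of counting error in this gradient was not tested. The 98 regions with a WT mean of 40 or more had medians of 33.4 in KO1, 36.8 in KO2, 41.5 in WT1 and 48.5 in WT2.

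The values on either side of the threshold show how little separates a chosen from an unchosen region. Just inside it lay a region on chromosome 15 from 80680348 to 80680894, with 14.4 CPM per kb in KO1, 21.3 in KO2, 20.5 in WT1 and 20.005 in WT2. Another, on chromosome 5 from 115632519 to 115633830, had KO1 at 27.3, KO2 at 22.3, WT1 at 23.3 and WT2 at 20.005. A further one, on chromosome 12 from 101551395 to 101551846, had KO1 at 17.1, KO2 at 10.4, WT1 at 20.006 and WT2 at 20.5. Of these, only the one on chromosome 12 had both KO libraries below both WT libraries.

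Just outside the threshold lay a region on chromosome 14 from 69950013 to 69951023, with KO1 at 20.1, KO2 at 22.6, WT1 at 23.2 and WT2 at 19.9998. On chromosome 8, from 123185838 to 123186621, KO1 was at 29.96, KO2 at 13.2, WT1 at 19.998 and WT2 at 21.8. On chromosome 18, from 56715940 to 56716497, KO1 was at 16.6, KO2 at 24.95, WT1 at 19.995 and WT2 at 23.7. In all 3 the genotypes overlapped.

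The 10 regions of highest mean WT level were examined one by one. The highest, on chromosome 2 from 98503787 to 98504280, had 90.3 CPM per kb in KO1, 374 in KO2, 146 in WT1 and 405 in WT2. It lies 598 bp from one of the 25 removed regions, and it was high in both sample 2 libraries and lower in both sample 1 libraries, so the genotypes overlapped. Its log2 fold change by edgeR was -0.19 ± 0.53 (SE). The second, also on chromosome 2, from 181747345 to 181748085, had the same order, with KO1 at 74.9, KO2 at 213, WT1 at 146 and WT2 at 340. Its log2 fold change was -0.71 ± 0.45 (SE). For these regions the sign depended on a single library. Without KO1 the first went to 0.53, and without WT2 it went to 0.73 and the second to 0.03.

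In 7 of the other 8 regions both KO libraries lay below both WT libraries, which was so at 42.1% of the 2925 regions and 17.0% of all autosomal ones. The 10 were ranked on their WT mean, which favours KO below WT, so nothing is read from the count. On chromosome 2, from 181665091 to 181665327, KO1 was at 40.6 CPM per kb, KO2 at 38.2, WT1 at 80.6 and WT2 at 122. The difference on the log2 scale was -1.34 ± 0.31 (SE). A pair of neighbouring regions on chromosome 17 lay beside another of the 25 removed regions. The first, from 39983413 to 39983736, had KO1 at 77.1, KO2 at 69.4, WT1 at 94.98 and WT2 at 170, with a difference of -0.83 ± 0.31 (SE). The second, from 39984399 to 39985717, had KO1 at 40.7, KO2 at 37.9, WT1 at 59.99 and WT2 at 96.6, with a difference of -0.97 ± 0.30 (SE). The KO libraries were close to each other in both, while the WT libraries differed, and without WT2 the differences were -0.35 and -0.59.

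The other pattern was a KO2 level far below the rest. On chromosome 18, from 3005771 to 3006098, KO1 was at 64.6 CPM per kb and KO2 at 26.1, with WT1 at 84.7 and WT2 at 88.7, a log2 difference of -0.93 ± 0.35 (SE). On chromosome 1, from 24620658 to 24620922, KO1 was at 41.7 and KO2 at 12.3, with WT1 at 72.9 and WT2 at 60.4, a log2 difference of -1.29 ± 0.42 (SE). In both, KO1 also lay below WT, but by less. Without KO1 the differences were -1.65 and -2.35, and without KO2 they were -0.46 and -0.71. With the sample number added as a block, the adjusted p by edgeR was 0.0477 for the chromosome 1 region.

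Smaller differences were seen in the remaining regions. On chromosome 8, from 19979866 to 19980626, KO1 was at 46.8 CPM per kb, KO2 at 54.6, WT1 at 67.7 and WT2 at 73.4. On chromosome 6, from 47698239 to 47698499, KO1 was at 56.7, KO2 at 48.5, WT1 at 76.3 and WT2 at 82.6. The tenth region, also on chromosome 6, from 47623000 to 47623623, had KO1 at 53.9, KO2 at 38.8, WT1 at 53.2 and WT2 at 69.9, so its genotypes overlapped. By edgeR the adjusted p was 1 in all 10, and it was under 0.05 in 5 of them without KO1 and in 5 without KO2.

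**Figure D3:**
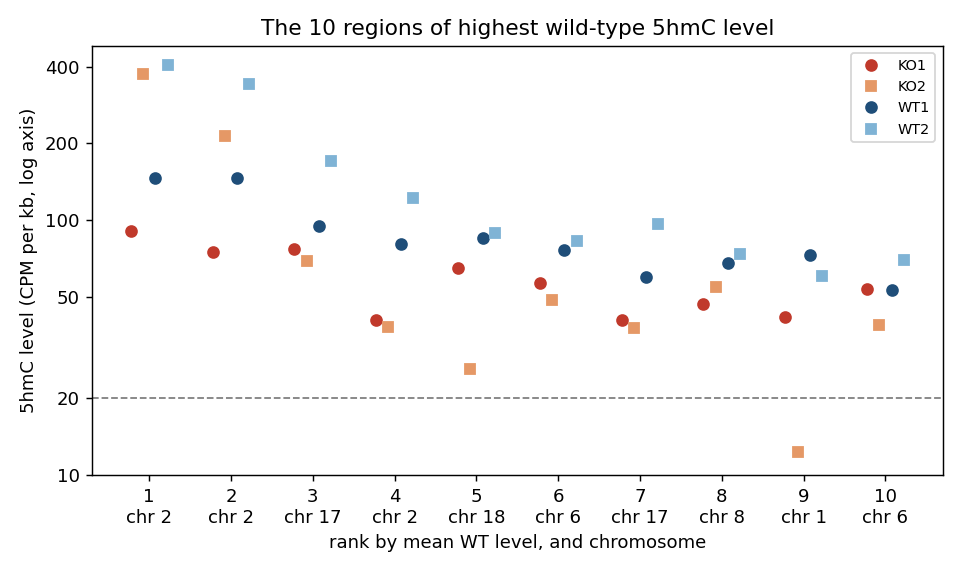
The 5hmC level in CPM per kb, on a log axis, of the 10 regions of highest mean WT level in each of the 4 libraries, with the dashed line at the threshold of 20. Ranks 1 and 2 split by sample number, with both sample 2 libraries above both sample 1 libraries, whereas 7 of the others have both KO libraries below both WT libraries (17.0% of all autosomal regions do), in a ranking on WT values that favours this order.

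The regions furthest below WT, among those whose genotypes did not overlap, were next examined. The lowest was on chromosome 9, from 115060675 to 115060888, with 25 reads in KO1, 3 in KO2, 97 in WT1 and 119 in WT2. In CPM per kb these were 7.64, 1.18, 33.1 and 44.1, and the log2 difference was -3.06 ± 0.60 (SE). The next, on chromosome 18 from 7320136 to 7320502, had KO1 at 16.04 CPM per kb, KO2 at 1.14, WT1 at 35.2 and WT2 at 58.1, a log2 difference of -2.41 ± 0.62 (SE). KO2 held only a few reads in both (3 and 5), and KO1 was at an intermediate level. Without KO1 the log2 differences were -4.90 and -5.23, and without KO2 the second was -1.57.

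The same order held on chromosome 4 from 105595153 to 105595614, where KO1 was at 7.51 CPM per kb, KO2 at 2.18, WT1 at 21.9 and WT2 at 20.6. It also held on chromosome 11 from 53831717 to 53832075, where KO1 was at 9.84, KO2 at 2.80, WT1 at 20.9 and WT2 at 20.8. On chromosome 15, from 25475744 to 25476476, KO1 was instead the lower of the pair, at 6.61 against 11.1 in KO2, 25.97 in WT1 and 24.3 in WT2, a log2 difference of -1.48 ± 0.35 (SE). By edgeR the adjusted p was 1 in all 5 (unadjusted p from 0.000112 to 0.00449). It was under 0.05 in all 5 without KO1, where the difference on chromosome 4 went from -2.10 to -3.19 and that on chromosome 11 from -1.69 to -2.80, and in 4 without KO2, where the latter was -1.11. With the sample number added as a block, the adjusted p by edgeR was 2.34e-05 for the chromosome 9 region and 1.65e-07 for the chromosome 18 region. It was 0.00242 on chromosome 4, 0.0204 on chromosome 15 and 0.184 on chromosome 11. Shared sample numbers do not show that samples were paired. Over all 2925 regions, 18 had a log2 ratio below -1 in both sample numbers, and 0 had one above 1 in both. Of all 189470 autosomal regions, 3993 and 1735 did so. The choice on WT values favours negative ratios, so nothing is read from these counts.

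In the opposite direction the differences were small. The region furthest above WT, on chromosome 11 from 51943040 to 51943860, had KO1 at 31.6 CPM per kb, KO2 at 34.3, WT1 at 22.7 and WT2 at 21.3, a log2 difference of 0.61 ± 0.28 (SE). On chromosome 12, from 101757667 to 101758228, KO1 was at 29.8, KO2 at 32.4, WT1 at 21.8 and WT2 at 21.7. On chromosome 13, from 40746026 to 40747241, KO1 was at 27.01, KO2 at 33.2, WT1 at 20.99 and WT2 at 22.04. In these 3 the WT levels lay close to the threshold that chose them.

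The other regions above WT stood higher. On chromosome 15, from 98343134 to 98343794, KO1 was at 37.1, KO2 at 47.6, WT1 at 27.3 and WT2 at 33.6. On chromosome 12, from 3110565 to 3111243, which is 295 bp from a removed region, KO1 was at 46.6, KO2 at 32.6, WT1 at 26.7 and WT2 at 29.5. After the first, the log2 difference of the other 4 was 0.51 to 0.54, and the adjusted p by edgeR was 1 in all 5. Without KO1 it was under 0.05 in 3 of them, and the difference of the last fell to 0.30. Without KO2 it was under 0.05 in 0 of them, and the differences on chromosomes 13 and 15 were 0.30 and 0.26.

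The KO libraries were furthest apart at the chromosome 18 and chromosome 9 regions given above, and at a region on chromosome 7 from 151646924 to 151647482. In the last, KO1 was at 5.97 CPM per kb and KO2 at 31.5, on either side of WT1 at 20.2 and WT2 at 21.7, and the log2 difference was -0.11 ± 0.52 (SE). The sign turned to 0.67 without KO1, and without KO2 the value was -1.84, with an adjusted p under 0.05 by edgeR.

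Next, the location of the strongest WT regions was described. They lay on all 19 autosomes, and their share of the listed regions ranged from 1.17% on chromosome 19 (64 of 5480) to 1.98% on chromosome 11 (231 of 11643). Chromosomes 15 (1.81%) and 8 (1.77%) followed. On every autosome the median of KO1 was below those of both WT libraries, from 18.4 CPM per kb on chromosome 7 to 21.8 on chromosome 6. The choice on WT values favours this order on each chromosome. The medians were not set beside those of all regions on the same chromosome, so no loss in KO1 is read from them. The KO2 median ranged from 21.03 on chromosome 18 to 25.7 on chromosomes 7 and 14, and it was above both WT medians on chromosome 7 (24.1 and 25.1) and on chromosome 19 (25.4 against 24.2 and 24.6).

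The strongest regions were wide. Their median width was 784 bp, with the middle 50% from 626 to 1042 bp, against 437 bp for all autosomal regions. Only 28 (0.957%) were narrower than 300 bp, against 23.1% of all, and 56 (1.91%) were wider than 2 kb, against 1.18%. Why the strongest regions were wider was not tested.

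They also lay in company. The median gap to the nearest listed region was 1345 bp, against 1732 bp over all autosomal regions, and 94.0% had another region within 10 kb, against 87.6%. The nearest other strong region was at a median distance of 117106 bp. It lay within 10 kb for 383 regions (13.1%), within 100 kb for 1353 (46.3%) and beyond 1 Mb for 194 (6.63%). Joined at 100 kb, the 2925 regions formed 2088 groups, of which 1572 held a single region. Groups of 3 or more numbered 163 (647 regions), and 26 held 5 or more (197 regions). Distances between strong regions and their groups were not set beside those of an equal number of listed regions. Whether strong regions gather more than listed regions do was thus not tested.

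The remaining regions were weaker the further they lay from a strong one. Within 2 kb of one (2468 regions), the median level was 8.94 CPM per kb in KO1, 10.1 in KO2, 9.27 in WT1 and 9.28 in WT2. Beyond 1 Mb (22967 regions), the medians were 7.91, 4.75, 7.25 and 6.33. The decline was thus shallow in KO1 and steep in KO2, and the WT libraries lay between them. The order of the libraries was reversed between the nearest and the farthest class, and the split was not one of genotype.

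**Figure D4:**
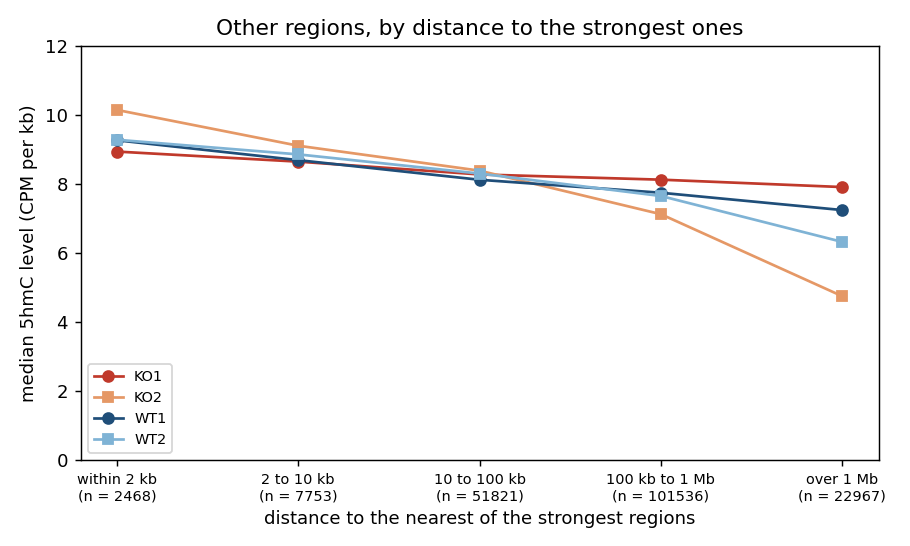
The median 5hmC level in CPM per kb of autosomal regions outside the strongest set, by distance to the nearest of the strongest regions, for each library. KO2 runs from 10.1 down to 4.75 and KO1 from 8.94 to 7.91, with the WT libraries between them at both ends.

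The largest group lay on chromosome 6 from 47604725 to 47728408, where 25 of 27 listed regions (92.6%) met the rule within 123684 bp. It consists of a pair of runs parted by 52798 bp. The 16 members of 500 bp or more followed each other at a median start-to-start distance of 4311 bp within the runs, and 9 of 14 such distances were between 4 and 5.5 kb. Whether these members share a repeated sequence was not tested. How the counting placed reads that match several places is not given in the sources used here. Levels of single members would be uncertain if their sequence is repeated.

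Levels in this stretch ranged from 16.6 to 58.7 CPM per kb in KO1, 21.4 to 48.5 in KO2, 22.3 to 76.3 in WT1 and 20.7 to 82.6 in WT2. The medians were 34.3, 33.8, 36.8 and 45.9. WT2 exceeded WT1 at 22 of the 25 members, KO1 lay below both WT libraries at 15 and KO2 at 19. These counts were not set beside shares over the 2925 regions, so nothing is read from them about this stretch. Both KO libraries lay below both WT libraries at 10 members and above them at 0. With 42.1% of the 2925 regions in the former class, 10 of 25 is no result about this stretch. The median log2 fold change by edgeR was -0.30, and without WT2 it was -0.10.

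**Figure D5:**
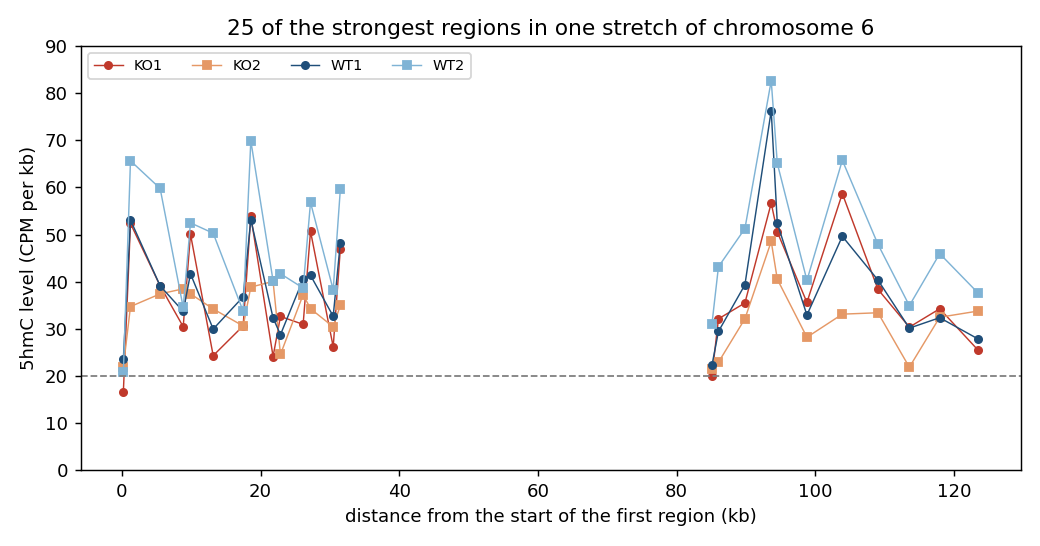
The 5hmC level in CPM per kb of the 25 strong regions in the chromosome 6 stretch, against the distance in kb from the start of the first, for each library, with the dashed line at the threshold of 20. High levels recur a few kb apart, WT2 lies above WT1 at 22 of the 25 regions, and KO1 and KO2 reach 58.7 and 48.5.

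The second group lay near the start of the listed part of chromosome 11, from 3023822 to 3099562, with 23 of 38 listed regions. Its members were narrow, from 180 to 799 bp wide around a median of 279 bp. The median level was 19.4 CPM per kb in KO1, 18.96 in KO2, 27.3 in WT1 and 39.5 in WT2. Both KO libraries lay below both WT libraries at 16 of the 23 (against 42.1% of the 2925 regions and 17.0% of all) and above them at 0 (against 4.03% and 14.2%), and WT2 exceeded WT1 at 21. At the other 7 the genotypes overlapped. The highest level of the group was in KO2 at the first member, from 3023822 to 3024254, named here after its values were seen, with 125 CPM per kb against 38.7, 40.9 and 46.9 in KO1, WT1 and WT2. The median log2 fold change by edgeR was -0.90, from -1.27 to 0.95, and the adjusted p was 1 at every member. It was -0.52 without WT2.

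Of all strongest regions, 43 (1.47%) lay within the first 1 Mb of the listed part of a chromosome, against 0.656% of all autosomal regions. Of the 43, 25 lay on chromosome 11 and 18 on other chromosomes. The share without chromosome 11 was not set beside that of all regions without it. The 43 had medians of 19.4 CPM per kb in KO1, 20.7 in KO2, 26.1 in WT1 and 35.5 in WT2, and both KO libraries lay below both WT libraries at 26, against 42.1% of the 2925 regions and 17.0% of all. Of these 26, 16 belong to the chromosome 11 group. Toward the far end, 156 regions (5.33%) lay in the last 5 Mb of the listed part, against 4.64% of all. Only 6 were within 100 kb of any of the 25 removed regions.

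The third group, on chromosome 8 from 129046754 to 129433784, had another form. Its 13 members were spread over 387031 bp among 120 listed regions, and they were of ordinary width for strong regions, with a median of 811 bp. The median level was 21.1 CPM per kb in KO1, 29.2 in KO2, 26.9 in WT1 and 26.7 in WT2. KO1 lay below both WT libraries at 12 of the 13 and KO2 at 2. The median log2 fold change by edgeR was -0.13, and it was 0.14 without KO1 and -0.47 without KO2, so its sign rested on 1 library.

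The next groups by size held 9 members each. In the first, spanning 70013702 to 70086614 of chromosome 14, the median was 32.5 CPM per kb in KO1, 37.1 in KO2, 34.1 in WT1 and 41.3 in WT2, with median log2 ratios of -0.14 and 0.05. In the second, spanning 19853088 to 20013200 of chromosome 8, it was 22.95, 16.3, 29.2 and 25.4, with ratios of -0.36 and -0.80. The groups thus differed in which KO library was the lower one.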

How the data were processed

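The authors deposited raw read counts for 192196 regions in 4 5hmC libraries (2 KO and 2 WT), with no normalisation. Per the submitters' processing notes, Bowtie2 2.2.6 and mm9 were used. How regions were defined, reads counted and duplicates or multiply placed reads treated is not given in the sources used here. The 2 input libraries were not analysed here. The rule for the regions and their lists was set with earlier results of these data known.

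Levels are counts scaled to 1000000 (CPM) of the chromosome 1 to 19 total outside the 25 regions of highest mean count, per kb. At these depths 3 counts, taken as the floor, equal 0.196 to 0.252 CPM. KO and WT counts were compared in edgeR 4.0.16 (R 4.3.3), using its quasi-likelihood test on all regions (TMM scaling, filterByExpr with a minimum count of 10, Benjamini-Hochberg adjustment, threshold 0.05), tested on simulated data. DESeq2 1.42.0 was an alternative. Named regions were the 10 of highest WT mean, the 5 highest and 5 lowest in KO without overlap, the 3 with KO libraries furthest apart, 3 on each side of the threshold and the 3 largest groups. Log2 fold changes of single regions are given for the first 3 kinds. Regions within 100 kb of each other formed groups. Figures were drawn with matplotlib 3.10.9. P-values and the SE of edgeR log2 fold changes, taken from its F statistic, measure only the spread between these libraries. That spread may be technical, and floors cover counting error only. Alternatives were other library scalings, no low-count filter, chromosomes 1 to 19 only, other thresholds and pseudocounts, the sample number as a block, and leaving out each library. Quantile normalisation, leaving out regions near chromosome starts or the 25, and choosing regions on each KO library alone were added after the data were seen.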

Additional observations from a re-analysis of the deposited data

Results flagged for a closer look

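Regions outside chromosomes 1 to 19 took no part in the rule, and some reached the same level in both WT libraries. On chromosome M, 8 of 8 listed regions were at 20 CPM per kb or more, with medians of 66.0 in KO1, 27.8 in KO2, 81.3 in WT1 and 90.2 in WT2. On chromosome X, 15 of 2637 regions did so, with medians of 18.2, 0.306, 35.8 and 50.04 in the same order. On chromosome Y, 19 of 56 regions did so, with medians of 12.7, 0, 50.3 and 43.7. The WT values chose these regions, so their order against KO is not read. Among them KO2 had a lower median than KO1 on each of the 3 chromosomes, and the cause was not tested.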

How the results depend on the processing

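The number of regions that met the rule followed its scale. It was 655 with TMM-adjusted library sizes, 564 with totals over all regions, 7106 at 16 CPM per kb, 1047 at 25 CPM per kb, and 4242 to 4512 when 1 WT library alone decided. Dropping the limit on the mean count changed nothing. The median log2 ratios of KO to WT kept their negative sign under each scaling, pseudocount, width limit and choice on 1 WT library. They ran from -0.38 to -0.24 for KO1 and from -0.24 to -0.01 for KO2. Where 1 WT library chose the regions, each KO library was compared with the other WT library, so the -0.01 is KO2 against WT1. In the other settings both WT libraries chose the regions, which favours a negative sign. A change of library size also moved the medians over all autosomal regions by as much. Quantile normalisation and the removal of 48 regions near chromosome starts or the 25 were added after the data were seen.

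The count of 0 regions called by edgeR, beside 4976 at unadjusted p under 0.05, was 2 without the low-count filter and 6 with DESeq2, and 7 to 13438 when a library was left out. Among the strongest WT regions it was 0 to 418 when a library was left out. Entering a replicate block for the sample number let 79 regions pass (0.0147% of those tested higher and 0.0300% lower). Of these, 6 were strongest WT regions, all lower in KO, the direction that the choice on WT values favours. Same-numbered libraries deviated together with a correlation of 0.174 over these regions, but a pair of numbers does not show that samples were paired. Of 126 log2 fold changes of 21 single regions under the other fits, 121 kept their side of the threshold and 5 passed it, all with the block (the regions named on chromosome 1, chromosome 9, chromosome 4, chromosome 18 from 7320136 and chromosome 15 from 25475744, adjusted p from 1.65e-07 to 0.0477). Leaving out a library, so that the lone one of its genotype is assumed to vary like the others, brought 23 of 84 past the threshold and turned the sign of 4, in regions on chromosome 2 (from 98503787, -1.64 to 0.73, and chr2:181747345-181748085, -1.73 to 0.034) and chromosome 7 (-1.84 to 0.67). The median of the chromosome 8 group ranged from -0.47 to 0.14. Why these changed was not tested.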
